A study of Mus musculus with 14 samples.

Results

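The probes described here are 100 of the 42006 oligonucleotide probes on a mouse array whose signal was low in colonies that grew out of retinoic acid culture, while it stayed near the control level after 48 h of the same agent. They were chosen by measured values: 23566 probes were well above background on every array of both untreated groups, and 13532 of these also lay within 0.3 (log2) of the control after 48 h of retinoic acid. From these 13532, the 100 with the highest score were taken, the score being the smallest of 4 differences, each untreated group minus each kind of colony. The differences that chose the probes are therefore given below as description and carry no test.

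The 14 Agilent 2-colour arrays, 2 in each of 7 groups, compared RNA of cultured mouse embryonic stem (ES) cells with a common reference RNA, with the sample in Cy3 and the reference in Cy5 on every array. The cell line was MC1 (strain 129SvEv-Tac by its label) with the sublines MC1-ZE3 and MC1-ZE16 (129/Sv), kept in ES medium that the labels call LIF+ for 5 groups and plain ES medium for standard day 3 and passage 10. Control day 3 cells were MC1-ZE3 grown for 3 days in this medium, and standard day 3 cells were MC1-ZE3 in another set of arrays, under standard conditions. RA 48 h cells were MC1-ZE3 given 50 nM all-trans retinoic acid (RA) for 48 h, and LY294002 48 h cells were MC1-ZE3 given LY294002 for 48 h. The label gives its dose as 10 nM, below the micromolar doses usual for this inhibitor, and whether the unit is right was not settled. Day 4 colonies were picked by hand from MC1-ZE16 in 50 nM RA, day 7 colonies were picked from MC1 in 50 nM RA, and the design text calls both pluripotent. Passage 10 cells were MC1-ZE3 exposed to RA for 7 days, then carried for 10 passages without it and collected on day 3. Whether both arrays of a group stand for different cultures is not given in the labels, and p-values cover only the spread between arrays, which may be technical. Colonies differ from the untreated cells also in subline and in slide (the day 4 arrays lay on slide 4, the day 7 arrays on slide 1). They differ from standard day 3 cells in the medium label too, and scan day differed in part. The day of collection differed as well, day 4 or day 7 against day 3, as did picking by hand by the design text, and for day 7 the strain label. RA, subline, slide, day of collection and picking cannot be told apart there, nor can strain label, medium label and scan day where these differ. On each array 56.1% to 75.1% of the probes were well above background in Cy3, and arrays of a group correlated at r = 0.972 to 0.993 across probes. The extraction text describes pooled picked colonies for every group but day 7, for which it names a well, and this conflict with the design text was not resolved.

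RA enters cells and binds nuclear receptors that switch target genes on or off, and in ES cells it starts differentiation. LIF is the cytokine that holds mouse ES cells in the undifferentiated state in culture. LY294002 blocks phosphoinositide 3-kinase, an enzyme of growth factor signalling that helps to sustain ES cells. Genes of undifferentiated cells usually fall as differentiation proceeds. The deposited files pair no probe with a gene, and none of the 100 sequences shared a run of 20 bases with a RefSeq promoter or miRNA hairpin in the tables at hand (0 of 100 for each). Genes are therefore not named, the ES cell label was not checked against marker genes, and each probe is given by its identifier and its sequence.

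The following probes carry the findings and are shown 5' to 3' as the scanner files list them, each 60 bases long. The first 4 form the only pairs of members whose sequences overlap, and capitals mark the bases that a pair shares, so that each pair reads overlapping stretches.
Z00075584-1: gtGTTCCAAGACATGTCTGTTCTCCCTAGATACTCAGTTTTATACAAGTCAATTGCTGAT
Z00010007-1: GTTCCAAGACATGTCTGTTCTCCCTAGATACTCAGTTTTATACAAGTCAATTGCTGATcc
Z00040364-1: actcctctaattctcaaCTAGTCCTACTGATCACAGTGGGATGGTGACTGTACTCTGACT
Z00075233-1: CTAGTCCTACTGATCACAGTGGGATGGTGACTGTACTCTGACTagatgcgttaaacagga
The next 3 are shown, without capitals, because they were among the lowest in colonies of the members above background on every array, or changed in the groups that did not choose the members.
Z00057987-1: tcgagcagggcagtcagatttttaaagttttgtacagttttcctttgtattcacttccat
Z00024810-1: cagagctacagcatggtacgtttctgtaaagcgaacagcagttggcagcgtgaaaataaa
Z00036536-1: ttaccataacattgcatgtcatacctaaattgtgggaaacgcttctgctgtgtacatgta

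Levels are given as log2 ratios of sample over reference after background correction (normexp) and loess normalisation, so that 0 means equal to the reference, and differences are differences of these log2 ratios. The members spanned a wide range of levels, with a majority above the reference in every group but the colonies. Their log2 ratios in control day 3 cells ran from -7.11 to 1.89 with a median of 0.30, and 67 of 100 lay above the reference, against 50.3% of the 31053 probes tested. The median was 0.28 after 48 h of RA, 0.36 in standard day 3 cells, 0.40 at passage 10 and 0.27 with LY294002. In day 4 colonies the median was -0.55 and in day 7 colonies -0.60, and 10 of 100 members lay above the reference in each. In RNA pooled from many cells, fewer cells holding an RNA and less of it per cell cannot be told apart. The number at least 2-fold above the reference was 18 in control day 3 cells and 0 in either kind of colony, while the number at least 2-fold below it went from 16 to 34 (day 4) and 31 (day 7). Reference signal in Cy5 differed little for these probes, with a median difference of -0.03 between day 4 colonies and standard day 3 cells and -0.07 for day 7, against -0.92 and -0.93 in Cy3.

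The depth of the lows in colonies differed between the scale of the choice and the scale of the levels. Scores ran from 3.18 to 0.88 on the scale of the choice (Agilent's processed signals, centred on the array median), with 78 of 100 above 1. There the median difference was -1.95 for day 4 colonies and -1.52 for day 7 colonies against standard day 3 cells. On the loess scale the same medians were -0.91 and -0.95, and against control day 3 cells they were -0.92 and -0.89. There 47 members (day 4) and 41 (day 7) lay at least 2-fold below standard day 3 cells. On day 4, 2 members lay above control day 3 cells (at most 0.03), and on day 7, 1 lay above standard day 3 cells (0.19). In day 4 colonies 32 members were well above background on neither array and 8 on 1 of 2, and in day 7 colonies these numbers were 11 and 10. All 14 arrays measured 59 members above background, and for these the median log2 ratio was 0.42 in control and 0.46 in standard day 3 cells, against -0.91 in day 4 and -0.89 in day 7 colonies. The lowest scores admitted were 0.89 (Z00025229-1), 0.89 (Z00023165-1) and 0.88 (Z00072688-1), and the first ones left out were 0.88 (Z00075176-1), 0.87 (Z00053329-1) and 0.86 (Z00021180-1), so the edge of the group is a matter of rank.

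At 48 h of RA the members lay near the control because the choice held them there. On the scale of the choice their differences ran from -0.30 to 0.29 with a median of -0.09, against -0.04 over all 13532 probes that passed both conditions. The difference was below 0 for 64 of 100 members, against 58.3% of the 13532, and below -0.2 for 26. On the loess scale the median was -0.02, 57 of 100 lay below 0, and 5 members lay outside the 48 h band. The choice asked for low levels in both kinds of colony. The median difference of day 7 minus day 4 was -0.01, against 0.01 over all probes tested, and 53 members were lower on day 7 and 47 on day 4. The widest gaps were -1.22 for Z00023582-1 and 1.39 for Z00026061-1. The untreated groups differed more than that for some members, with standard minus control day 3 running from -1.44 to 1.90 around a median of 0.02, at least 2-fold higher for 5 and at least 2-fold lower for 5.

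Z00057987-1 was above background on every array. It read 1.01 and 0.99 in control, 1.48 and 1.45 in standard day 3 cells, 0.75 and 0.80 after 48 h of RA, then -1.58 on both day 4 arrays and -0.83 and -1.10 on day 7. All 4 colony arrays lay below the reference and the control, standard and RA 48 h arrays above it. Its difference of -3.04 between day 4 colonies and standard day 3 cells was the lowest of all members in that comparison, and day 7 lay above day 4 on both arrays.

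Z00024810-1 was the member lowest in day 7 colonies against standard day 3 cells, at 13.2-fold, and was among those on which the untreated groups disagreed. It stood at 0.39 and 0.40 in standard day 3 cells but -1.52 and -1.48 in control day 3 cells and -1.48 and -1.34 after 48 h of RA. Day 4 colonies read -2.51 and -2.64, and day 7 colonies -3.36 and -3.29. The colonies thus lay below both untreated groups without overlap, 3.54-fold below control day 3 cells on day 7, and the 2 untreated groups were further from each other (1.90 in log2) than control day 3 cells were from either kind of colony.

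The pair Z00075584-1 and Z00010007-1, which share 58 bases, read alike on every array, with a largest difference of 0.20 (log2) between them over 14 arrays. The RNA they read was far rarer than in the reference: Z00075584-1 stood at -5.58 and -5.71 in control, -5.84 and -5.56 after 48 h of RA, and -5.01 and -5.12 in standard day 3 cells. Day 4 colonies read -7.18 and -7.08 and day 7 colonies -7.58 and -7.67, 4.17-fold and 5.89-fold below standard day 3 cells. Both probes were above background on all arrays. The pair Z00040364-1 and Z00075233-1, which share 43 bases, differed from each other by at most 0.26. Z00075233-1 read 0.09 and 0.02 in control, 0.01 and 0.00 after 48 h of RA and 0.57 and 0.53 in standard day 3 cells, and was not well above background on either day 4 array, where it read -0.46 and -0.49, at least 1.33-fold under control day 3 cells. Such bounds are in Cy3 signal after normalisation and set the untreated mean against the dimmest signal still called above background, or the probe's own signal where that is higher.

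The member with the highest score, Z00020827-1 (3.18), was well above background on none of the 4 colony arrays. Its log2 ratio was 0.88 and 0.69 in control and 0.66 and 0.80 in standard day 3 cells, and its bounds were at least 1.73-fold (day 4) and at least 1.9-fold (day 7) below standard day 3 cells. The score of 3.18 stands for a fold that these bounds do not show. Z00062890-1 was not well above background on either day 4 array, where it read -1.01 and -0.74, against 1.34 and 1.32 in standard day 3 cells and -0.17 and -0.18 in control day 3 cells, from which the bound was at least 1.42-fold. Among the other high scores, Z00075014-1 was above background on every array and read 0.72 and 0.73 in control and 1.51 and 1.17 in standard day 3 cells, against -1.22 and -1.20 in day 4 and -0.81 and -1.06 in day 7 colonies. Z00005450-1 lay below the reference throughout, at -1.09 and -1.10 in control, -2.11 and -1.93 in day 4 and -2.68 and -2.43 in day 7 colonies, and was not well above background on day 4. Z00029575-1 read 0.90 and 0.77 in control and 0.42 and 0.50 in standard day 3 cells, against -0.19 and -0.02 in day 4 colonies, where it was not well above background, and -0.04 and -0.08 in day 7 colonies. The differences of the last 2 probes were smaller on the loess scale than their scores of 2.33 and 1.97 on the scale of the choice.

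Probes outside the 100 overlapped 2 members, and in both cases the 48 h condition kept the neighbour out. Z00074737-1 shares 27 bases with the member Z00022680-1, and its difference in day 4 colonies against standard day 3 cells was -1.58, and in day 7 colonies -1.27, beyond the -0.77 of the member. The RA 48 h minus control difference of Z00074737-1 on the scale of the choice was -0.58, outside the band. Z00035046-1 shares 28 bases with the member Z00076834-1, and its 48 h difference was -0.39, while the 2 probes differed by at most 0.24 on any array. For these stretches, then, being in or out of the group depended on which of 2 overlapping probes was read at 48 h. Whether both probes of a pair read the same RNA was not tested.

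Base content and a few short motifs of the sequences were counted, without a test. The median GC content of the members was 43.3% (quartiles 36.7% and 45.4%), against 45% (38.3% and 51.7%) over the probes tested. The polyadenylation hexamer AATAAA was found as written in 9 of 100 members and in 7.38% of the probes tested, and on the other strand in 6 of 100 and 3.07%. A variant, ATTAAA, was found in 3 of 100 and 3.18%, and on the other strand in 5 of 100 and 2.22%. Matches of this kind are descriptions of the letters only.

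Passage 10 cells ask whether levels as low as those of the colonies were found after RA and 10 passages without it. Passage 10 cells were of another subline than the colonies and lay on other slides. No MC1-ZE3 group is treated here as colonies, although the extraction text, in conflict with the design text, describes pooled picked colonies for them. The medium label differed as well, and the scan day in part. Day of collection differed too, as did picking by hand by the design text, and for day 7 colonies the strain label. A return from low levels therefore cannot be told apart from any of these differences. For 97 of 100 members both passage 10 arrays lay above all 4 colony arrays, against 21.9% of the probes tested, and for 0 of 100 both lay below (23.6% of the probes tested). The passage 10 mean was nearer to standard day 3 cells than to either colony mean for 94 members, against 65.3% of the probes tested. As the members were chosen as low in colonies and the probes tested were not, only the passage 10 side of these counts is new. The gap from these shares follows in part from the choice. The median difference was 1.06 from day 4 and 0.99 from day 7 colonies, and Z00057987-1 read 1.62 and 1.73 at passage 10, beside its 1.48 and 1.45 in standard day 3 cells.

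Against standard day 3 cells, 14 members were higher at passage 10 and 8 were lower by limma's test at an adjusted p under 0.05, where 1.66% and 1.76% of the probes tested were called higher and lower, and 78 were not called. The differences were mostly small, within 0.5 (log2) for 92 members (98.97% of the probes tested), with a median of 0.09 and a range of -0.83 to 1.31, and at least 2-fold higher for 2 members and lower for 0, where 0.0483% of the probes tested passed each way. The untreated side of this comparison took part in the choice of the members as a high level. The counts of higher and lower calls fell to 4 and 2 without replicate 1 of passage 10, 7 and 4 without its replicate 2, 12 and 4 without replicate 1 of standard day 3, and 4 and 2 without its replicate 2. No share over all probes stands beside these counts, so their fall is not read as particular to the members. Agilent's processed signals gave 8 higher and 5 lower, where 1.28% and 1.72% of the probes tested were called. Median centring gave 2 and 0, where 0.058% and 0.061% were called. Slides 2 and 3 each held 1 array of either group. The members' median difference was 0.08 on slide 2 and 0.12 on slide 3, against 0.015 and 0.0002 over all probes tested. Passage 10 lay above standard day 3 on both slides for 52 members and below on both for 28. No share over all probes tested is given for these 2 counts.

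The 2 members at least 2-fold higher at passage 10 had unlike histories. Z00075103-1, which had the lowest log2 ratio of all members in control day 3, standard day 3 and passage 10 cells, read -5.52 and -5.43 at passage 10 against -6.89 and -6.68 in standard day 3, -7.15 and -7.07 in control and -7.09 and -7.26 in day 4 colony arrays. On this scale its day 4 colony arrays thus overlapped its control arrays. Its rise of 1.31 ± 0.09 (SE, n = 2 arrays a group; limma adjusted p = 5.71e-06) put both passage 10 arrays above the other 12. Z00036536-1 read 1.84 and 1.78 at passage 10 against 0.87 and 0.63 in standard day 3 cells, -0.02 and -0.01 in day 4 and -0.14 and -0.27 in day 7 colonies. It rose by 1.06 ± 0.11 (adjusted p = 0.000343), to a level passed only by its own LY294002 arrays. Z00025664-1 (0.66 ± 0.11, adjusted p = 0.00502), Z00027746-1 (0.64 ± 0.11, adjusted p = 0.00753) and Z00021695-1 (0.63 ± 0.09, adjusted p = 0.00248) followed. Median centring ended these 3 calls, as did leaving out replicate 2 of either group (0.62 and 0.61) for Z00025664-1 and replicate 1 of passage 10 (0.61) for Z00027746-1, whose value without replicate 2 of standard day 3 was 0.43.

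Of the members lower at passage 10, Z00003224-1 was lowest against standard day 3 cells, at a log2 difference of -0.83 ± 0.10 (limma adjusted p = 0.000654). It read -0.35 and -0.23 at passage 10 against 0.64 and 0.44 in standard day 3 cells, and its day 4 colonies stood at -0.55 and -0.65. It was thus nearer to both colony means than to standard day 3 cells, and so outside the 94 above, although both passage 10 arrays lay above all 4 colony arrays. Z00035227-1 fell by 0.48 (SE 0.07, adjusted p = 0.00213) from 0.35 and 0.48 to -0.07 and -0.05, still well above its -1.52 and -1.50 in day 4 colonies. Z00024810-1 fell by 0.56 (SE 0.09, adjusted p = 0.00637), to -0.19 and -0.14, with day 4 colonies at -2.51 and -2.64. Z00003437-1 (-0.75, adjusted p = 0.0143) and Z00023582-1 (-0.45, adjusted p = 0.0223) completed the lowest 5, and neither was called when any 1 of the 4 arrays was left out (-0.69 to -0.81 and -0.38 to -0.53). Z00024810-1 was not called without replicate 1 of passage 10 (-0.54) or replicate 2 of standard day 3 (-0.56), and median centring ended all 5 of these calls. Agilent's processed signals ended those of Z00003437-1 and Z00023582-1.

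With LY294002, members were called in both directions. Neither group of the comparison with passage 10 cells took part in the choice. There 45 members were lower with LY294002 and 27 higher at a limma adjusted p under 0.05, and 28 were not called. Of the probes tested, 24.6% were called lower and 23.3% higher, so the count of higher members lay near that share. At least 2-fold lower were 8 (3.25% of the probes tested) and at least 2-fold higher 6 (1.7%). The median difference was -0.17 against 0.01 over all probes tested, and 54 members lay within 0.5 (log2) against 79.6%. With median centring in place of loess the calls were 22 lower and 36 higher, where 6.78% and 33.2% of the probes tested were called. Under that scaling the median was 0.19 over all probes tested and 0.11 over the members, and the cause of the shift was not tested. Which direction held the majority of calls therefore depended on the scaling.

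Against the untreated groups, which the choice did use, the split was nearly even. From control day 3 cells, 36 members were lower and 38 higher (28.1% and 24.5% of the probes tested), with 11 and 10 at least 2-fold (5.74% and 1.42%). The median was 0.01, but the range ran from -2.19 to 2.08, and 49 members lay within 0.5, against 75.1% of the probes tested. From standard day 3 cells, 37 were lower and 32 higher (23.4% and 23.2%), with 8 and 11 at least 2-fold (3.17% and 1.51%). Median centring gave 26 lower and 35 higher against control day 3 (12.7% and 23.3% of the probes tested) and 18 lower and 41 higher against standard day 3 cells (6.55% and 33.0%), with the median of all probes tested at 0.12 and 0.20. All LY294002 arrays lay on slide 6, and control day 3, standard day 3 and passage 10 arrays on others. Standard day 3 and passage 10 arrays also differed from those of LY294002 in medium label and scan day. Agent and slide, with medium label and scan day where these differ, cannot be told apart in these comparisons.

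Taking control day 3, standard day 3 and passage 10 cells as 3 separate comparators, LY294002 was lower than each for 25 members and higher than each for 19, where 11.6% and 9.26% of the probes tested were. The 3 comparisons share the LY294002 arrays. The 25 had median log2 ratios of 0.34 in control and 0.33 in standard day 3 cells, -0.04 at passage 10, -0.83 with LY294002, and -0.70 and -0.74 in day 4 and day 7 colonies. The 19 had medians of 0.23 and 0.29 in the untreated groups, 0.45 at passage 10, 1.20 with LY294002 and -0.47 and -0.49 in the colonies. Both sets were picked on their LY294002 values and all members on their colony values, so where these medians lie follows from the choice. Over all members, both LY294002 arrays lay above all 4 colony arrays for 83 (22.7% of the probes tested) and below them for 3 (23.7%). The members were chosen as low in colonies and the probes tested were not. Only the LY294002 side of these counts is therefore new, and the gap from these shares follows in part from the choice.

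The overlapping pairs fell on opposite sides. Z00075584-1 read -8.02 and -7.65 with LY294002, and Z00010007-1 read -8.04 and -7.60, below the day 4 colony arrays and overlapping those of day 7. The log2 difference from control day 3 cells was -2.19 ± 0.12 and -2.17 ± 0.12 (limma adjusted p = 1.23e-08 for each), and that from passage 10 cells -2.92 for both, which is 7.59-fold. Z00040364-1 read 2.20 and 1.84 with LY294002 and Z00075233-1 read 2.19 and 2.00, against 0.78 and 0.65, and 0.89 and 0.82, at passage 10. They were higher by 1.97 ± 0.11 and 2.04 ± 0.10 than in control day 3 cells (adjusted p = 1.19e-08 and 2.55e-09), 3.92-fold and 4.1-fold. In each pair both probes gave the same direction on all arrays concerned, with no overlap between the groups.

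Z00023582-1 had the widest difference between LY294002 and standard day 3 cells. It read -1.90 and -1.83, against 0.15 and 0.16 in control, 1.44 and 1.33 in standard day 3 and 0.86 and 1.01 in passage 10 cells. It was 9.54-fold lower than in standard day 3 cells (log2 -3.25 ± 0.09, limma adjusted p = 1.01e-10), within the range of its colony arrays (-0.63 to -2.06). Z00060181-1 read -0.29 on both LY294002 arrays against 1.78 and 1.75 in control day 3 cells, a log2 difference of -2.05 ± 0.06 (adjusted p = 2.63e-11), and 0.34 and 0.32 in standard day 3 cells. Z00066880-1 read -0.44 and -0.28 with LY294002, against 1.49 and 1.46 in control day 3 cells and 0.43 on both day 4 colony arrays. Its difference from control day 3 cells was -1.84 ± 0.12 (adjusted p = 4.39e-08), or -2.93 with Agilent's processed signals, and both LY294002 arrays lay below all 4 colony arrays.

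On the other side, Z00036536-1 read 2.91 and 2.51 with LY294002 against 0.66 and 0.59 in control day 3 cells, a rise of 2.08 ± 0.11 (limma adjusted p = 1.14e-08), and was also 1.87-fold higher than at passage 10. Z00025664-1 rose by 1.59 ± 0.11 from control day 3 cells (adjusted p = 6.6e-08), to 1.77 and 2.02, while its day 4 colonies stood at -1.51 and -1.50. Z00024810-1 read 0.41 and 0.11 with LY294002, 1.76 ± 0.09 above control day 3 cells (adjusted p = 7.99e-09), but was not called against standard day 3 cells at -0.14 ± 0.09 (adjusted p = 0.246). For 4 members LY294002 was called higher than control and lower than standard day 3 cells, and for 3 the reverse, so for these the direction depended on the untreated group used. No share over all probes tested is given for these counts. Z00057987-1, which had the lowest difference of day 4 colonies from standard day 3 cells, read 1.02 and 1.07 with LY294002 and was not called against control day 3 cells (0.04 ± 0.08, limma adjusted p = 0.707). It was called lower than in standard day 3 cells (-0.42 ± 0.08, adjusted p = 0.000952) and passage 10 cells (-0.64 ± 0.08, adjusted p = 3.48e-05), and median centring ended both calls, with values of 0.018 and -0.20.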

How the data were processed

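Probes, lists and tests were chosen with earlier results of these data known. Per the file headers, the deposited scanner files came from version 9.5.1.1 of Agilent Feature Extraction and hold intensity values per spot and channel without normalization, flags for spots well above background, and log10 ratios of Cy5 over Cy3 from background-subtracted, dye-normalized signals. The authors' deposited values, in log10, cover 25030 of 42006 probes. It followed the sample over reference direction (r of 0.899 to 0.963 per array against the sign-turned ratio), with column medians of 2.24 to 2.32, and its centring and steps are not given in the sources used here. All its columns were mapped to samples.

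The choice of members used the deposited log10 ratios, sign turned, divided by 0.30103 and centred on the array median, in 5 groups (10 arrays). Levels and tests used mean signals corrected with normexp (offset 50) and loess within each array, in limma 3.58.1 (R 4.3.3, statmod 1.5.0). Control and outlier spots (1 to 24 per array) were left out. In Cy3, 0 spots were saturated, and saturation in Cy5 was not counted. A probe was tested if 1 or more groups had its Cy3 well above background on both of their arrays, 31053 of 42006 (73.9%), members included (100 of 100). Every member also had to be well above background on all untreated arrays, a condition that 23566 probes met. Shares over the probes tested thus include probes that did not meet it. Group means were fitted over all 14 arrays (7 residual degrees of freedom, 5.33 from the prior), and limma's two-sided test with Benjamini-Hochberg adjustment over all tested probes had a threshold of 0.05. Array number limits the precision. The fit and the test were also run on simulated log2 ratios with known changes and independent noise on each array. Background correction, scaling and slides were not simulated, and the outcome is not given here.

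Named probes were the 10 highest scores, the 5 lowest and 5 highest differences of LY294002 from control day 3 and of passage 10 from standard day 3, the 3 on either side of rank 100, and members whose sequences overlap another member by at least 20 bases. Members that overlap probes outside the group, those probes, and Z00026061-1 were added after their values were seen. Of the named probes, 1 is not reported here. Gene lists and marker genes were not tested, as 0 of 42006 probe names equals a gene symbol. Slide and scan day came from the file headers (6 slides, 4 days). Standard day 3 and passage 10 arrays with the same number lay on the same slide and deviated together (r = 0.254 across probes), as did those of LY294002 and passage 10 (r = 0.287), which share no slide. The pairing rests on the shared slide. Alternatives were Agilent's processed signals, median centring, the authors' table, other filters on dim probes, slide and replicate blocks, and leaving out each array.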

Additional observations from a re-analysis of the deposited data

How the results depend on the processing

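Of the calls for named probes, 68 in all, 672 of 712 values under the alternatives kept direction and call. A further 39 kept direction without the call, and 1 turned. That was Z00057987-1, LY294002 against standard day 3, which went from -0.42 to 0.018 with median centring. The filters on dim probes and the slide and replicate blocks use the same group means. Under these the direction could not change, only the call, so the number kept is high in part by construction. For passage 10 against standard day 3, the 8 lower members became 5 with Agilent's processed signals, 5 in the authors' table (which measured 78 members) and 0 with median centring, and 2 to 4 when 1 array was left out. The 14 higher members became 8 with Agilent's processed signals, 2 with median centring, and 4 to 12 when 1 array was left out. With the replicate number as a block, which pairs these arrays by slide, the counts were 8 lower and 16 higher, and the block moved no other count by more than 1.5 times. Median centring gave 22 lower for LY294002 against passage 10 and 18 against standard day 3, and turned the members' medians there to 0.11 and 0.16. Asking for signal above background on all arrays left 59 members. Of these, 27 were called lower and 16 higher with LY294002 against passage 10, and 21 higher against control day 3. Against standard day 3, 24 were lower and 19 higher. These counts are out of 59 members. No share over all probes under that filter stands beside them, so they are not read as results about the members. Where the cause of a shift is not named, it was not tested. The choice itself kept 51 of 100 probes on normexp and loess values, 46 on normexp and median centring, and 83 to 97 when 1 array was left out. Signal over background limits the colonies, where 60 (day 4) and 79 (day 7) of 100 members were above background on both arrays.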
